A study of Mus musculus with 5 samples.

Results

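Late S3 proximal tubule nuclei are described here as 598 nuclei out of 16359 nuclei in 5 libraries of mouse kidney. A nucleus was a barcode with at least 200 detected genes. It counted as late S3 when the 4 genes Cyp7b1, Slc22a19, Slc22a7 and Lpl together gave at least 3 UMIs (unique molecular identifiers, each counting 1 captured RNA molecule). This sum also had to be at least that of Slc7a13 and Slco1a1 and larger than that of Slc5a2, Slc5a12, Slc34a3 and Gldc, and Havcr1 and Vcam1, which mark injured tubule cells, had to be at 0 UMIs. The 12 genes of this rule chose the nuclei, so their levels are given as a description. Late S3 nuclei were set against 3319 early proximal tubule nuclei, led by Slc5a2, Slc5a12, Slc34a3 and Gldc. The closest neighbours were 946 nuclei led by Slc7a13 and Slco1a1, called Slco1a1/Slc7a13 nuclei below. A gate of 1753 thick ascending limb nuclei, led by Slc12a1 and Umod, served to gauge free RNA. It asked for at least 3 UMIs of these genes together, more than each proximal tubule sum. A nucleus with RNA of both kinds could thus enter it, and could also meet a proximal tubule gate.

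All mice were male, aged 10 to 12 weeks, weighed 25 to 28 g and carried Six2-TGC, Rosa26rtTA and pTRE-H2BeGFP. With food containing doxycycline at 625 mg/kg, this set of transgenes puts green fluorescent histone into cells of the Six2 lineage, which gives rise to the nephron. Nuclei were sorted by DNA stain and then by GFP. GFP-positive nuclei came from kidneys with no injury and from kidneys whose 2 renal pedicles had been clamped and released (ischaemia-reperfusion injury, IRI). These were taken 64 h, 96 h and 28 d later, and each group has 1 library. A GFP-negative library, labelled adult non-nephron, came from kidneys with no injury. Both libraries with no injury carry the same serum values, so they may share animals, and the sources differ on whether these animals had sham surgery. Serum creatinine, in mg/dL, was 0.122 with no injury. It stood at 0.375 (64 h), 0.312 (96 h) and 0.144 (28 d) after clamping. Nothing in the labels says how many animals went into a library. No group had a replicate, so comparisons between libraries carry no test and their 95% intervals cover counting error only.

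The proximal tubule reabsorbs most of the filtered glucose, amino acids and phosphate in its convoluted part. Its straight part ends in the S3 segment in the outer medulla, which secretes organic anions and drugs and is known as a site of damage after ischaemia. Cyp7b1 encodes oxysterol 7-alpha-hydroxylase, which acts in bile acid synthesis and in the breakdown of oxysterols and some steroids. Slc22a19 and Slc22a7 encode organic anion transporters. Lpl encodes lipoprotein lipase, which frees fatty acids from circulating lipoproteins.

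In the deposited gene lists Cyp7b1 is ENSMUSG00000039519, and in the GRCm38 annotation of GENCODE release M21 it lies on the minus strand of chromosome 3 at chr3:18071950-18243338. Slc22a19 lies on the minus strand at chr19:7673061-7711310, beside other genes of the same carrier family, whose reads the counting could split. Slc22a7 lies on the minus strand at chr17:46432183-46438457, and Lpl on the plus strand at chr8:68880491-68907448. Of the 4 markers, the RefSeq promoter table (GRCm38.p6) held only Slc22a19, which is why this marker is shown. Its 250 bases before the start are chr19:7711311-7711560 on the minus strand. Of the 4 markers, Slc22a19 also differed least between 28 d and no injury when measured in nuclei chosen without it. Capitals mark CAAAGT or its reverse complement ACTTTG, the core letters of a nuclear receptor half-site as HNF4A binds it.
Slc22a19 promoter: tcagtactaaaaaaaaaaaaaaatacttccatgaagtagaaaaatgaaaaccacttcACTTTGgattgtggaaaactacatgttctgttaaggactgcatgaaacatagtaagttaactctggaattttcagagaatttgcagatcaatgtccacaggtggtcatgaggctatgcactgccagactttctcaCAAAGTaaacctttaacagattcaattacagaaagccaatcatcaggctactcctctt
The motif CAAAGT, searched on both strands, occurred at 2 places in this window, and 12.6% of 32851 windows of the same length held it at least once. GTTAAT, the core letters of an HNF1 site, did not occur, and 6.43% of windows held it. The window had 35.6% G and C bases, against a median of 52.4% over all windows. These matches describe letters and show no binding.

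The libraries held 1922002 to 7153971 UMIs over all deposited barcodes, 3012 to 3508 per library. At 96 h 3202 of 3508 barcodes counted as nuclei. Median depth per nucleus was 1793.5 UMIs with no injury (GFP positive), 1290 at 64 h, 507 at 96 h, 982 at 28 d and 964.5 in the GFP-negative library. The 96 h library was the shallowest and stood apart from the rest, so shares were also computed with every nucleus thinned to 500 UMIs. Library pairs shared 9 to 20 barcodes, and no late S3 barcode was shared.

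Late S3 nuclei made up a small share of nuclei with no injury and 28 d after injury, and few nuclei met the rule at 64 h and 96 h. They numbered 226 of 3508 nuclei with no injury, which is 6.44% (exact Clopper-Pearson interval 5.65 to 7.31%). At 64 h 4 of 3012 nuclei met the rule (0.133%, 0.0362 to 0.340%), and at 96 h 6 of 3202 (0.187%, 0.0688 to 0.407%). At 28 d the number was 142 of 3299 (4.30%, 3.64 to 5.05%). The shares at 64 h and 96 h lay below those of the other libraries by more than the counting intervals. With no limit on Havcr1 and Vcam1, 6 of 3012 nuclei at 64 h (0.199%) and 7 of 3202 at 96 h (0.219%) met the rest of the rule. The shares were then 6.58% with no injury and 4.49% at 28 d. Early proximal tubule nuclei took another course: with no injury they made up 35.8% of nuclei, after 64 h 29.2%, after 96 h 4.81% and after 28 d 27.5%. Slco1a1/Slc7a13 nuclei also fell at 64 h and 96 h, with shares of 15.0%, 3.95%, 0.312% and 7.40% in the same order. With every nucleus thinned to 500 UMIs their shares were 2.99%, 0.271%, 0.122% and 2.32%. Of all nuclei in the 3 proximal tubule gates, late S3 nuclei were 11.3% (226 of 2008) with no injury, 0.399% (4 of 1002) after 64 h, 3.53% (6 of 170) after 96 h and 11.0% (142 of 1293) after 28 d.

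After thinning to 500 UMIs, 138 of 3508 nuclei with no injury met the rule (3.93%). At 64 h there were 0 of 2952, which allows a share of up to 0.102% at 3 counts. At 96 h there were 2 of 1645 nuclei (0.122%), and the remaining nuclei of that library were too shallow to enter. At 28 d there were 90 of 3018 (2.98%), and the 64 h and 96 h shares stayed below the others. The gap between 28 d and no injury narrowed here, and the intervals overlap (2.40 to 3.65% at 28 d, 3.31 to 4.63% with no injury). After thinning to 300 UMIs the share was 2.18% at 28 d and 2.11% with no injury. With Lpl left out of the marker sum, 141 of 3299 nuclei met the rule at 28 d (4.27%, 3.61 to 5.02%), against 171 of 3508 with no injury (4.87%, 4.19 to 5.64%), and these intervals overlap. With Cyp7b1 left out, 35 nuclei at 28 d (1.06%) and 144 with no injury (4.10%) remained.

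**Figure D1:**
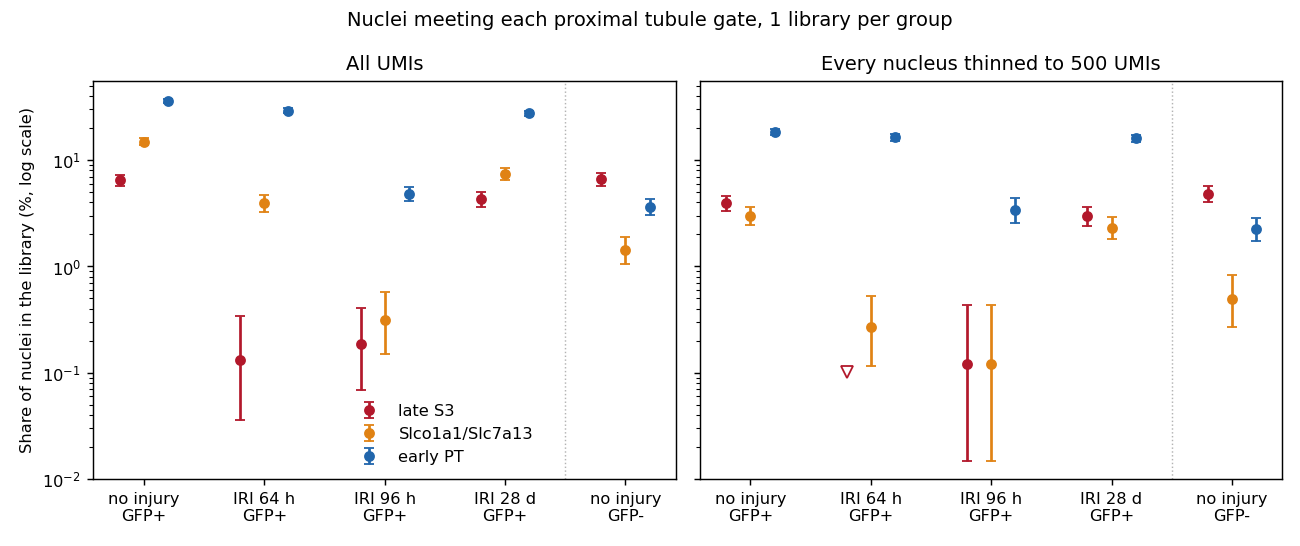
Share of nuclei meeting each proximal tubule gate in each library (percent, log scale), with all UMIs on the left and with every nucleus thinned to 500 UMIs on the right. Points are shares, bars are exact 95% Clopper-Pearson intervals, and the open triangle is the upper limit that 0 of 2952 nuclei allows at 64 h. Late S3 shares are 0.133% at 64 h and 0.187% at 96 h, against 4.30 to 6.59% in the other libraries.

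The GFP-negative library held many late S3 nuclei and few other proximal tubule nuclei. There were 220 late S3 nuclei among 3338 (6.59%, 5.77 to 7.49%). Late S3 nuclei made up 11.3% of the proximal tubule gates in GFP-positive nuclei with no injury (9.91 to 12.7%), against 56.4% in GFP-negative nuclei (51.3 to 61.4%). Early nuclei made up 35.8% of the GFP-positive library with no injury and 3.65% of the GFP-negative one. The sort by GFP can set these shares.

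Marker levels were also taken over all deposited barcodes of a library, whatever their gate or number of genes. Cyp7b1 stood at 0.0207 times its level with no injury at 64 h (exact interval 0.0149 to 0.0281), 0.0706 times at 96 h and 1.02 times at 28 d. Slc22a19 stood at 0.131, 0.164 and 0.816 times, and Slc22a7 at 0.0447, 0.0610 and 0.729 times. Lpl stood at 0.0569 times at 64 h, 0.0290 times at 96 h and 0.191 times at 28 d (0.158 to 0.229). Of the 4 markers, Lpl was thus the only one still under 0.5 times its level with no injury at 28 d. A level over all barcodes cannot tell fewer nuclei from less RNA in each.

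Late S3 nuclei differed in how they met the rule. The median marker sum was 18 UMIs with no injury, 3 at 64 h, 4 at 96 h, 12 at 28 d and 18 in GFP-negative nuclei. Cyp7b1 gave the most UMIs of the 4 markers, alone or tied, in 149 of 226 nuclei with no injury, 3 of 4 at 64 h, 6 of 6 at 96 h, 129 of 142 at 28 d and 179 of 220 GFP-negative nuclei. All 4 markers were detected in 89 nuclei with no injury, 14 at 28 d and 95 GFP-negative nuclei, and in none at 64 h or 96 h. Lpl alone carried 14 nuclei with no injury, 1 at 64 h, 0 at 96 h, 1 at 28 d and 15 GFP-negative nuclei. Those 15 GFP-negative nuclei held 19 Pparg UMIs in 3 nuclei and 23 Car3 UMIs in 3 nuclei, while the other 205 held 2 and 0 UMIs. Pparg and Car3 are known from fat cells, so a few nuclei of the Lpl-only kind go against the label. At the threshold, 12, 3, 2, 6 and 26 nuclei (no injury, 64 h, 96 h, 28 d, GFP negative) had exactly 3 marker UMIs, and 32, 7, 5, 27 and 82 nuclei just outside had exactly 2 and met the rest of the rule.

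The label was checked against marker lists that the rule did not use. General proximal tubule markers (Lrp2, Cubn, Slc34a1, Hnf4a, Slc27a2, Keg1, Miox and Kap) summed to 18392 CPM (UMIs of a gene scaled to one common total of UMIs over the pooled nuclei) in late S3 nuclei with no injury, 15787 CPM at 28 d and 16523 CPM in GFP-negative nuclei. Podocyte and fibroblast lists summed to at most 19.4 CPM in each. Macrophage genes summed to 112 CPM with no injury, 72.1 CPM at 28 d and 154 CPM in GFP-negative nuclei, and Ptprc, which defines leukocytes, gave 0, 1 and 1 UMIs. Most of these macrophage sums was the single gene Csf1r, with 63, 11 and 78 UMIs. Distal convoluted and connecting tubule genes summed to 514 CPM with no injury, 420 CPM at 28 d and 544 CPM in GFP-negative nuclei. Slc12a3, the distal salt carrier on that list, had 49 UMIs (1313 CPM) in 5 of the 14 GFP-positive nuclei with no injury that met the rule by Lpl alone, and 116 CPM in the other 212. Thick ascending limb genes reached 1177 CPM with no injury, 517 CPM at 28 d and 555 CPM in GFP-negative nuclei. In these libraries 25, 5 and 10 late S3 nuclei held at least 3 UMIs of Slc12a1 and Umod. Without them the late S3 shares were 5.73% with no injury, 4.15% at 28 d and 6.29% in GFP-negative nuclei. Counts of the gate contrasts without such nuclei are given in the last section. At 64 h the label rests on little: thick limb genes gave 82 UMIs, 10171 CPM, against 61 UMIs, 7566 CPM, of the general proximal tubule markers. The thick limb signal came mostly from 1 of the 4 nuclei, which held 40 of 41 Slc12a1 UMIs and all 18 Umod UMIs. Of 21 Egf UMIs 20 came from 1 nucleus. Gene levels within late S3 nuclei are not compared at 64 h or 96 h, where late S3 nuclei summed to 8062 and 5261 UMIs.

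To compare each marker without having chosen nuclei by it, its level was measured in nuclei chosen by the other 3 markers. Cyp7b1, Slc22a19 and Slc22a7 stood at 28 d near or above their levels with no injury, and Lpl stood far below. Cyp7b1 had 4897 CPM at 28 d (Poisson interval 4331 to 5516, 35 nuclei), against 3956 CPM with no injury (3761 to 4159, 144 nuclei), a ratio of 1.24 (1.08 to 1.41). Without Cyp7b1 the choice leans on Lpl, which was lower at 28 d, so these sets were not chosen alike. They include nuclei that met the rule by Lpl alone, 14 with no injury and 1 at 28 d, with 0 Cyp7b1 UMIs. The Cyp7b1 ratio without those nuclei was not computed. In Slco1a1/Slc7a13 nuclei chosen without Cyp7b1, it had 1744 CPM at 28 d and 687 CPM with no injury. Slc22a19 had 780 CPM at 28 d and 787 CPM with no injury, a ratio of 0.991 (0.826 to 1.19). Slc22a7 had 396 CPM at 28 d and 351 CPM with no injury, a ratio of 1.13 (0.869 to 1.45). The intervals of the organic anion transporters thus include no difference. Their sets too include the nuclei that met the rule by Lpl alone, which held 0 UMIs of both transporter genes. The transporter ratios without those nuclei were not computed.

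Lpl had 153 CPM at 28 d (107 to 212, 141 nuclei), against 1139 CPM with no injury (1046 to 1237, 171 nuclei), a ratio of 0.134 (0.0932 to 0.188). A Lpl UMI was found in 17.7% of these nuclei at 28 d and in 84.2% with no injury. Lpl was lower at 28 d in the other gates chosen without it as well, at 70.7 against 263 CPM in Slco1a1/Slc7a13 nuclei and 10.7 against 35.1 CPM in early nuclei. After thinning to 500 UMIs, Lpl was seen in 5.04% of late S3 nuclei chosen without it at 28 d (7 of 139, 2.05 to 10.1%) and in 42.1% with no injury (72 of 171, 34.6 to 49.9%). Thick ascending limb nuclei thinned likewise gave 5.28% at 28 d and 5.37% with no injury, and early nuclei gave 0.343% and 1.59%. At this depth the share in late S3 nuclei at 28 d was not above that of thick ascending limb nuclei. It lay above that of early nuclei of the same library (0.0708 to 1.00%), so the reading depends on the gate set beside it. Median depths before thinning were 1463 and 2604 UMIs in the late S3 nuclei.

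**Figure D2:**
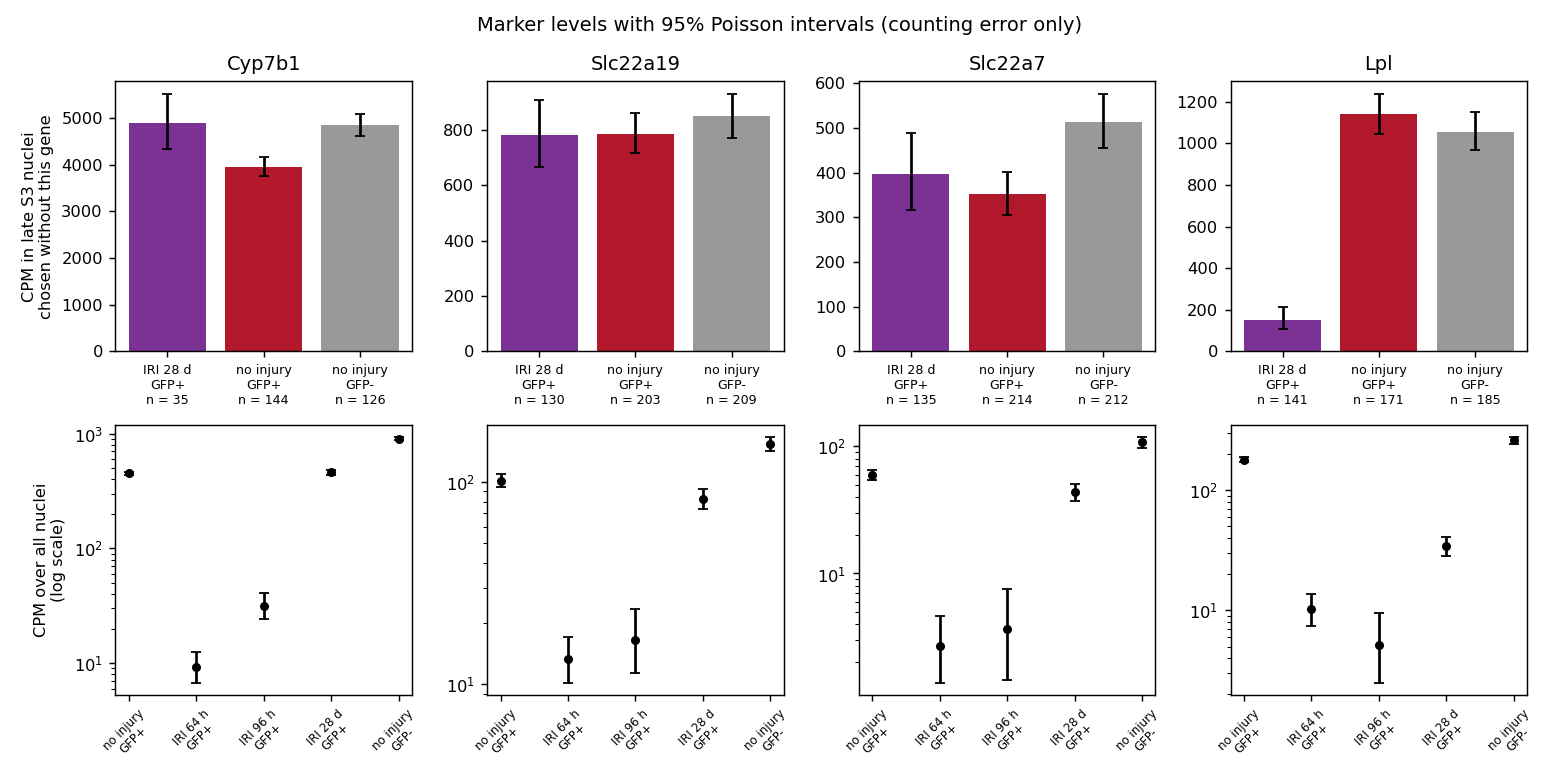
Top row: CPM of each marker in late S3 nuclei chosen by the other 3 markers at 28 d, with no injury and in GFP-negative nuclei, with n nuclei under each bar and exact 95% Poisson intervals. Bottom row: CPM over all nuclei, here every deposited barcode, of each of the 5 libraries (log scale). Lpl at 28 d stands at 0.191 times its level with no injury, while Cyp7b1 stands at 1.02 times.

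Between the sorted fractions with no injury, Lpl had 1139 CPM in GFP-positive and 1055 CPM in GFP-negative late S3 nuclei chosen without it, and Slc22a19 had 787 and 849 CPM. Neither differed beyond its counting interval (ratios 1.08, 0.956 to 1.22, and 0.927, 0.813 to 1.06). Cyp7b1 had 3956 CPM in GFP-positive and 4843 CPM in GFP-negative nuclei, a ratio of 0.817 (0.761 to 0.877). In Slco1a1/Slc7a13 nuclei chosen without Cyp7b1, it had 687 CPM in the GFP-positive and 4168 CPM in the GFP-negative library. This choice moves nuclei between gates: the GFP-negative library then had 116 Slco1a1/Slc7a13 nuclei, against 48 under the full rule. Slc22a7 had 351 CPM in GFP-positive and 513 CPM in GFP-negative nuclei, a ratio of 0.685 (0.571 to 0.821).

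To ask how late S3 nuclei differ from early nuclei beyond the rule, UMIs were summed per gate in each library with at least 10 nuclei in both (28 d, no injury GFP positive and no injury GFP negative), and the 12 rule genes were left out. Of the straight tubule list 9 of 14 measured genes were higher in late S3 nuclei and 3 lower, and of the convoluted tubule list 1 of 15 was higher and 11 lower. By edgeR's quasi-likelihood test with library as block, 733 of 7743 genes were higher in late S3 nuclei (9.47%) and 775 were lower (10.0%) at a Benjamini-Hochberg adjusted p below 0.05, 19.5% in all. Scaling by total UMIs alone moved the median of all genes by 0.12 on the log2 scale and gave 949 higher and 620 lower. Without the library with no injury (GFP positive) the counts were 485 higher and 486 lower. The p-values measure only how alike the late-to-early difference was in 3 libraries, which may share animals. All values of these gates follow the library order 28 d, no injury (GFP positive) and GFP negative.

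Of the genes named by their size of change, Rnf24, a RING finger protein gene, was abundant. It had 1658 CPM at 28 d, 1314 CPM with no injury and 1787 CPM in the GFP-negative library in late S3 nuclei, against 59.6, 71.2 and 41.5 CPM in early nuclei of the same libraries. Its log2 difference was 4.49 ± 0.22 (SE), and the edgeR adjusted p was 3.24e-11. Ido2, an indoleamine dioxygenase of tryptophan breakdown, had 139.9, 91.8 and 120.2 CPM in late S3 nuclei, against 1.95, 1.15 and 0 CPM in early nuclei. Mep1b, a brush border metalloprotease subunit, had 161, 232 and 251 CPM in late S3 nuclei, against 5.86, 5.74 and 4.61 CPM in early nuclei. C8a, a complement component, had 110.2, 123 and 124 CPM in late S3 nuclei, against 4.89, 1.91 and 0 CPM in early nuclei. For each of these genes the ranges over the 3 libraries do not overlap. Mro, Slc39a8 (a metal ion importer), Serpina1f (a serpin) and the unnamed transcripts 4930533I22Rik and 0610040F04Rik were also among the 10 largest increases, with log2 differences of 4.76 to 5.65.

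The largest decreases included Gatm, the first enzyme of creatine synthesis. It had 97.5 CPM at 28 d, 117 CPM with no injury and 49.5 CPM in the GFP-negative library in late S3 nuclei, against 996, 1051 and 1396 CPM in early nuclei. Its log2 difference was -3.84 ± 0.24. Tbxas1, thromboxane synthase, had 4.24, 12.5 and 5.30 CPM in late S3 nuclei, against 98.7, 98.4 and 134 CPM in early nuclei. In both genes each late S3 value lay below each early value. Col8a1 (a collagen), Adam11, Spp2 and 3 unnamed transcripts (4921539H07Rik, Gm16311 and Gm12962) were also among the 10.

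Against Slco1a1/Slc7a13 nuclei the differences were fewer. By the same edgeR test 218 of 6890 genes were higher in late S3 nuclei (3.16%) and 308 were lower (4.47%), 7.63% in all, with 262 and 229 under scaling by total UMIs. These counts depended on single libraries. They were 46 and 69 without the library with no injury (GFP positive), 141 and 178 without the 28 d library, and 462 and 482 without the GFP-negative library, in which 48 nuclei were Slco1a1/Slc7a13 nuclei. DESeq2 called 58 and 69.

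Bcat1, the cytosolic branched-chain aminotransferase, had 161, 173 and 288 CPM in late S3 nuclei, against 17.7, 10.6 and 143 CPM in Slco1a1/Slc7a13 nuclei. The log2 difference was 2.79 ± 0.34 (edgeR adjusted p = 4.14e-06, and 0.0747 with no library block). The ratio between these gates was smallest in the GFP-negative library. Esrp1, a splicing regulator of epithelia, Hs6st2, a heparan sulfate sulfotransferase, and the adhesion protein gene Ntm were also among the 10. Lower genes included Bnc2, a zinc finger protein gene, with 182, 261 and 60.1 CPM in late S3 nuclei, against 704, 969 and 638 CPM in Slco1a1/Slc7a13 nuclei. Cyp2e1, a cytochrome P450 that oxidises ethanol, and Enpp6, a choline phosphodiesterase, were lower as well, by 2.63 and 2.68 on the log2 scale.

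**Figure D3:**
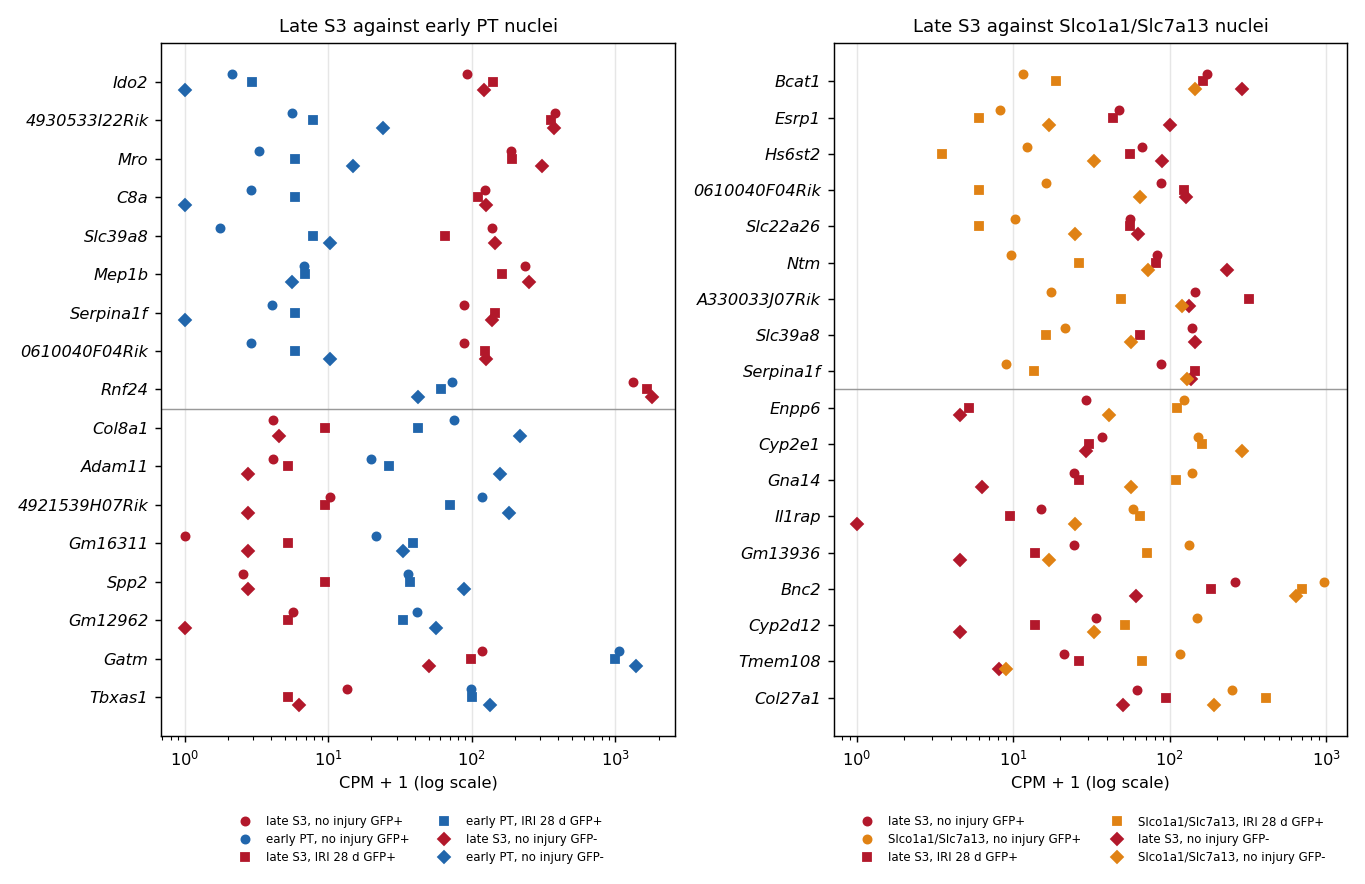
CPM + 1 (log scale) of genes among the 10 of largest increase (above the line) and the 10 of largest decrease (below it) in late S3 nuclei, against early nuclei on the left and Slco1a1/Slc7a13 nuclei on the right. Each point is 1 gate of 1 library, and its shape marks the library (no injury GFP positive, 28 d or GFP negative). Bcat1 has 173 CPM in late S3 nuclei with no injury, against 10.6 CPM in Slco1a1/Slc7a13 nuclei.

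Of all genes tested, 9.47% were higher and 10.0% lower than in early nuclei, and 3.16% higher and 4.47% lower than in Slco1a1/Slc7a13 nuclei. The counts of each list stand beside these shares. The straight tubule list outside the rule, with its 9 genes higher and 3 lower of 14, had a median log2 difference of 1.21 from early nuclei, against -0.00017 over all genes. Slc6a18, a neutral amino acid carrier of the late tubule, had 1081 CPM at 28 d, 1388 CPM with no injury and 2034 CPM in the GFP-negative library in late S3 nuclei, against 157, 198 and 96.7 CPM in early nuclei. Acsm3, a medium-chain acyl-CoA synthetase, had 645, 639.6 and 638 CPM in late S3 nuclei, against 72.3, 51.3 and 32.2 CPM in early nuclei. Atp11a, a phospholipid flippase, was higher by 2.24 ± 0.25. Slc7a9, Cyp2e1 and Cyp4b1 were the 3 genes of the list that were lower, by 2.12, 1.26 and 1.32 on the log2 scale. Against Slco1a1/Slc7a13 nuclei 6 of 14 were higher and 3 lower, while the median was -0.15 against 0.01 over all genes, so count and median differ in sign.

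Convoluted tubule genes ran the other way, with 1 of 15 higher and 11 lower than in early nuclei (median -2.24) and 0 higher and 9 lower than in Slco1a1/Slc7a13 nuclei (median -1.16; 8 lower under scaling by total UMIs). Slc34a1, the main phosphate carrier, had 1611 CPM at 28 d, 1745 CPM with no injury and 585 CPM in the GFP-negative library in late S3 nuclei. Early nuclei had 5138, 4767 and 5984 CPM. Slc7a8, a basolateral amino acid exchanger, had 46.6, 49.8 and 12.4 CPM in late S3 nuclei, against 246, 322 and 346 CPM in early nuclei. The exception was Slc22a12, the urate exchanger, higher by 1.24 ± 0.16 on the log2 scale. The endocytic receptors Lrp2 and Cubn did not pass the edgeR test, with log2 differences of -0.18 ± 0.16 and -0.16 ± 0.17.

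Carriers of organic ions and drugs split, with 5 of 17 higher and 7 lower than in early nuclei and a median of 0.01 (7 and 6 under scaling by total UMIs), beside 9.47% higher and 10.0% lower over all genes. Slc22a26, a neighbour of Slc22a19 in the same gene cluster, had 55.1 CPM at 28 d, 54.5 CPM with no injury and 61.9 CPM in the GFP-negative library in late S3 nuclei, against 0, 0.383 and 0 CPM in early nuclei. Slco4c1, an organic anion carrier, had 50.9, 38.9 and 51.3 CPM in late S3 nuclei, against 2.93, 0.383 and 0 CPM in early nuclei. Slc22a2, a basolateral cation carrier, was higher by 1.51 ± 0.22. Slc22a6 and Slc22a8, which take up anions from blood, were lower by 1.37 and 2.42 on the log2 scale. Slc22a genes of this cluster are close copies, so reads may be shared among them.

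Amino acid carriers split evenly, with 6 of 15 higher and 6 lower than in early nuclei (median 0.08) and 5 higher and 3 lower than in Slco1a1/Slc7a13 nuclei. Slc38a3, a glutamine carrier, had 208 CPM at 28 d, 126 CPM with no injury and 180.3 CPM in the GFP-negative library in late S3 nuclei. Early nuclei had 14.7, 8.04 and 13.8 CPM, and Slco1a1/Slc7a13 nuclei 55.5, 32.4 and 104 CPM, so in each library the level was highest in late S3 and lowest in early nuclei. Slc3a1, the heavy chain of the cystine carrier, was higher than in early nuclei by 1.30 ± 0.16, and Slc6a19, the early neutral amino acid carrier, was lower by 2.87.

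Genes of sterol, oxysterol and bile acid handling, the setting of Cyp7b1, were 6 of 14 higher and 5 lower than in early nuclei (median 0.41), beside 9.47% higher and 10.0% lower over all genes. With no filter on low counts the median was -0.10. Slc10a2, the sodium-coupled bile acid carrier, had 212 CPM at 28 d, 224 CPM with no injury and 285 CPM in the GFP-negative library in late S3 nuclei, against 20.5, 31.8 and 18.4 CPM in early nuclei. It was also higher than in Slco1a1/Slc7a13 nuclei, by 1.02 ± 0.18. Hmgcs1 (0.66), Cyp51 (1.37) and Insig1 (1.30), which make cholesterol or control its synthesis, and Nr1h3 (2.01), which encodes the oxysterol receptor LXR-alpha, were higher by these log2 differences. Cyp27a1, which makes 27-hydroxycholesterol, a substrate of the Cyp7b1 enzyme, was lower by 1.35. The cholesterol exporter Abca1 was lower by 1.80, the bile acid receptor Nr1h4 by 0.82, the steroid dehydrogenase Hsd3b2 by 1.02 and the basolateral bile acid exporter subunit Slc51a by 1.30. Ch25h, which makes 25-hydroxycholesterol, and Hsd3b7, a later enzyme of bile acid synthesis, were at 0 UMIs in late S3 nuclei of these 3 libraries.

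Of lipid uptake and storage genes 2 of 11 were higher and 3 lower than in early nuclei (median -0.41), counts of a few genes beside 9.47% higher and 10.0% lower over all genes. Cd36, a fatty acid translocase, had 572 CPM at 28 d, 412 CPM with no injury and 329 CPM in the GFP-negative library in late S3 nuclei, against 96.8, 85.8 and 82.9 CPM in early nuclei. Slc27a2, a fatty acid carrier and very long-chain acyl-CoA synthetase, was higher by 1.17 ± 0.20. The fatty acid oxidation list gave 4 of 18 higher and 3 lower than in early nuclei, and 3 higher and 5 lower than in Slco1a1/Slc7a13 nuclei. Ehhadh and Crot, which act in peroxisomes, and Acadm, the medium-chain dehydrogenase of mitochondria, were higher than in early nuclei by 2.21, 2.20 and 2.07, and than in Slco1a1/Slc7a13 nuclei by 0.68, 0.86 and 1.08. Ppara, the receptor known to drive this pathway, was lower than in early nuclei by 1.20 ± 0.16 and than in Slco1a1/Slc7a13 nuclei by 0.90 ± 0.16.

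Gluconeogenesis genes were 1 of 6 higher and 3 lower than in early nuclei (median -0.51), again beside 9.47% higher and 10.0% lower over all genes. Pck1, which controls entry into the pathway, was higher by 0.64 ± 0.19 (edgeR adjusted p = 0.0190), while G6pc, which makes the last step, was lower by 1.60. Among conjugation and glutathione genes 6 of 14 were higher and 5 lower than in early nuclei. Gclc, the catalytic subunit of the first enzyme of glutathione synthesis, had 2086 CPM at 28 d, 3243 CPM with no injury and 3771 CPM in the GFP-negative library in late S3 nuclei, against 370.4, 560.3 and 364 CPM in early nuclei. Its partner Gclm was higher by 1.55 ± 0.16, and Ggt1, which breaks glutathione down at the brush border, by 1.11 ± 0.16. Gpx3, a secreted glutathione peroxidase, was lower by 2.02 ± 0.21.

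Cytochrome P450 genes were 7 of 16 higher and 6 lower than in early nuclei (9.47% higher and 10.0% lower over all genes). They were 1 higher and 6 lower than in Slco1a1/Slc7a13 nuclei (3.16% and 4.47%). Cyp2a4, a steroid hydroxylase with a close copy in Cyp2a5, had 110.2, 59.1 and 117 CPM in late S3 nuclei, against 11.7, 5.74 and 0 CPM in early nuclei. Cyp2d12 was lower by 2.99 and Cyp2d26 by 2.67 on the log2 scale. Of 10 male-biased kidney genes 5 were higher and 3 lower than in early nuclei, and 2 higher and 4 lower than in Slco1a1/Slc7a13 nuclei. Kap, the androgen-regulated kidney protein, had 3023 CPM at 28 d, 3190.4 CPM with no injury and 3466 CPM in the GFP-negative library in late S3 nuclei, against 465, 480.3 and 779 CPM in early nuclei.

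Transcription factors of the tubule were 4 of 15 higher and 6 lower than in early nuclei (9.47% higher and 10.0% lower over all genes). Of 14 measured, 0 were higher and 5 lower than in Slco1a1/Slc7a13 nuclei (3.16% and 4.47%). Hnf4g, a nuclear receptor, was higher than in early nuclei by 0.57 ± 0.16. Hnf4a, a main regulator of proximal tubule genes, had a log2 difference of 0.08 ± 0.16 and did not pass the test. Maf, a basic leucine zipper factor, had 288 CPM at 28 d, 244 CPM with no injury and 124 CPM in the GFP-negative library in late S3 nuclei, against 1462, 875 and 1391 CPM in early nuclei. The coactivator gene Ppargc1a was lower by 1.35 ± 0.18.

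Most genes of late S3 nuclei stood at 28 d within 2-fold of their level with no injury. Among 6492 genes with at least 20 UMIs over both sums, 408 were at least 2-fold higher at 28 d (6.28%) and 464 at least 2-fold lower (7.15%), 13.4% in all. These counts have no replicate check. The median log2 difference over all genes was 0.04. The late S3 sums held 235829 UMIs at 28 d and 642550 UMIs with no injury, and median depths were 1460 and 2600 UMIs per nucleus.

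Mid1, a ubiquitin ligase gene that spans the pseudoautosomal boundary of the X chromosome in laboratory mice, ranked first by the interval bound nearest to 1. It had 1730.1 CPM at 28 d, in 119 of 142 nuclei, against 60.7 CPM with no injury, in 29 of 226 nuclei, a ratio of 28.5 (exact interval 20.5 to 40.7). The GFP-negative library had 19 Mid1 UMIs in 12 of 220 late S3 nuclei, and at 64 h 3 of the 4 nuclei held 21. The 28 d library was higher in the other gates too, with ratios of 17.7 in Slco1a1/Slc7a13, 7.74 in early and 8.30 in thick ascending limb nuclei.

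The unnamed transcript 4930556J24Rik had 1641 CPM at 28 d and 521 CPM with no injury, a ratio of 3.15 (2.71 to 3.65). Its ratios were 2.98, 3.41 and 2.42 in those 3 gates. GFP-negative late S3 nuclei with no injury had 1315 CPM, so the libraries with no injury differed from each other in this transcript by nearly as much. Scand1, a SCAN domain protein gene, had 19 UMIs in 17 nuclei at 28 d and 6 UMIs with no injury, and its ratio in thick ascending limb nuclei was 8.99.

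Slc7a12, an amino acid carrier gene, had 23 UMIs in 14 late S3 nuclei at 28 d, 1 UMI with no injury and 0 in GFP-negative nuclei. The ratio of 28 d to no injury was 62.7 (10.2 to 2581). In early nuclei it was 1.59 (0.647 to 3.74), and in Slco1a1/Slc7a13 nuclei 6.49 (2.81 to 15.9). Ddr2, a collagen receptor gene, had 20 UMIs in 11 nuclei at 28 d, 9 UMIs with no injury and 21 in GFP-negative nuclei. Few nuclei carried other entries: Slc26a4, an anion exchanger of intercalated cells, had 25 UMIs in 4 nuclei at 28 d, 0 with no injury and 14 in 4 GFP-negative nuclei. Of 21 Jam3 UMIs at 28 d 18 came from 1 nucleus, and of 83 Cep89 UMIs 41 did.

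The largest decreases at 28 d included enzymes with ratios closer to 1 in early nuclei; the difference between gates was not tested. Aadat, which transaminates kynurenine and aminoadipate, had 182 CPM at 28 d and 758 CPM with no injury, a ratio of 0.241 (0.172 to 0.329). GFP-negative late S3 nuclei had 1101 CPM. The Aadat ratio was 0.633 (0.520 to 0.765) in Slco1a1/Slc7a13 and 0.934 (0.769 to 1.13) in early nuclei. Pecr, a peroxisomal enoyl-CoA reductase, had 254 CPM at 28 d and 812 CPM with no injury, a ratio of 0.313 (0.236 to 0.410), beside ratios of 0.758 and 0.662 in those gates. Rbms3, an RNA-binding protein gene, had 3 UMIs at 28 d and 74 with no injury, a ratio of 0.110 (0.0223 to 0.336), beside 1.10 and 0.868. Abca13, a lipid transporter gene, and the transcript 4430402I18Rik stood at 0.220 and 0.227 times.

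Kcnj2, a potassium channel gene, had 0 UMIs at 28 d, 34 in 28 late S3 nuclei with no injury and 14 in GFP-negative nuclei. Akr1b3, aldose reductase, had 1, 39 and 10 UMIs in those libraries. Both were low in thick ascending limb nuclei at 28 d as well, with ratios of 0.0864 and 0.0681. Slc12a1, the thick limb salt carrier, was on the list too, at 204 CPM at 28 d and 666 CPM with no injury. Without the nuclei that held at least 3 UMIs of Slc12a1 and Umod its log2 difference was -0.40. That filter uses Slc12a1 itself and took out 38 of its 48 UMIs at 28 d and 394 of 428 with no injury. The value therefore describes only the remaining nuclei.

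**Figure D4:**
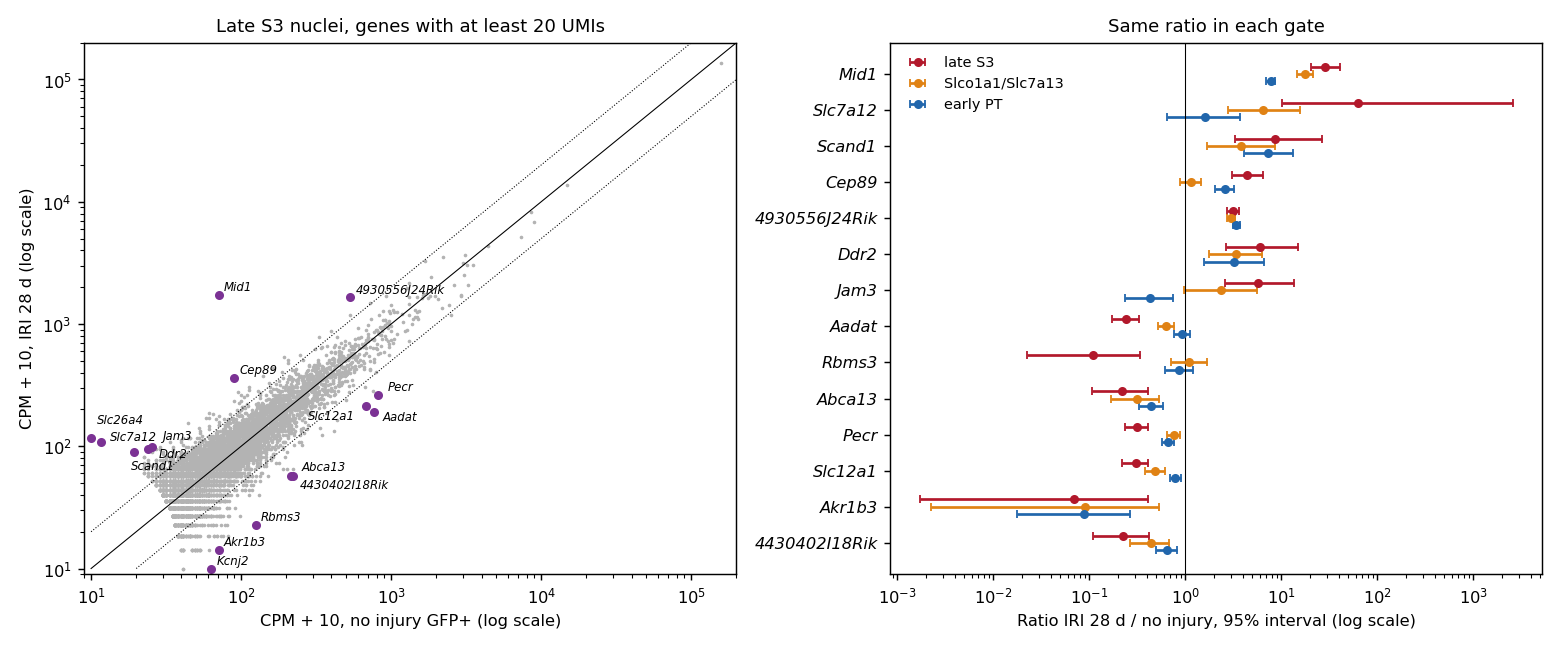
Left: CPM + 10 of each gene with at least 20 UMIs in late S3 nuclei at 28 d and with no injury (log scales), with lines at equal levels and at 2-fold. Right: ratio of 28 d to no injury with exact 95% intervals for the named genes in late S3, Slco1a1/Slc7a13 and early nuclei (log scale, genes at 0 UMIs in either library left out). Mid1 is higher at 28 d in the 3 gates shown, while Aadat has a ratio of 0.241 in late S3 nuclei and 0.934 in early nuclei.

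The lists are set beside the 13.4% of all genes that stood at least 2-fold apart between 28 d and no injury. The straight tubule list had 0 higher and 0 lower of 14 (median log2 -0.15), the convoluted list 0 and 2 of 14 (-0.22) and fatty acid oxidation 0 and 0 of 16 (-0.02). Lipid uptake had 0 and 0 of 10, gluconeogenesis 0 and 0 of 6, glycolysis 0 and 1 of 9, amino acid carriers 0 and 1 of 15 and transcription factors 0 and 1 of 14. Organic ion carriers had 1 and 2 of 15, sterol genes 2 and 0 of 12, P450 genes 2 and 2 of 14, conjugation genes 1 and 2 of 13 and male-biased genes 1 and 1 of 10. Thick ascending limb genes had 0 and 2 of 4. Kap stood at 0.948 times its level with no injury (0.869 to 1.03). Abcc2, an apical exporter of conjugated anions, had 874 CPM at 28 d and 384 CPM with no injury, a ratio of 2.27 (1.88 to 2.75), beside 1.48 (1.33 to 1.66) in early nuclei. Cyp2j13, a cytochrome P450, had 471 and 196 CPM in those libraries, a ratio of 2.40 (1.84 to 3.12). Nr1h3 stood at 2.12 times (1.14 to 3.89).

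Lower members included Gclc at 0.643 times (0.582 to 0.710), Ehhadh at 0.578 times (0.474 to 0.699) and Slc27a2 at 0.625 times (0.552 to 0.706). In early nuclei Gclc and Ehhadh stood at 0.661 and 0.607 times. Gstm1, a glutathione transferase, had 63.6 CPM at 28 d and 169.6 CPM with no injury, a ratio of 0.375 (0.203 to 0.646). Pax2, a nephron transcription factor, stood at 0.329 times (0.159 to 0.618). Injury genes outside the rule gave 100 UMIs (424 CPM) at 28 d and 350 UMIs (545 CPM) with no injury. Spp1, osteopontin, made up 52 and 263 of them, and 102 of the 263 came from 1 nucleus. The lower sum at 28 d rested on Spp1. Of the 2 injury genes with at least 20 UMIs over both sums, 1 stood at least 2-fold higher at 28 d and 0 lower. The higher one was Clu, with 10 UMIs at 28 d and 13 from the larger sum with no injury. Sox9, of the injury list, and Mki67 and Top2a, of the cell cycle list, were at 0 UMIs in both.

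Late S3 nuclei of the sorted fractions were within 2-fold of each other for most genes. Of 7743 genes 227 were at least 2-fold higher in GFP-positive nuclei (2.93%) and 391 at least 2-fold lower (5.05%), 7.98% in all, with a median log2 difference of -0.03. The straight tubule list had 1 higher and 0 lower of 14 measured (median 0.01). The convoluted list had 8 of 14 higher and 0 lower (median 1.04). Slc34a1 had 1745 CPM in GFP-positive and 585 CPM in GFP-negative late S3 nuclei. Slc13a1, the sulfate carrier, had 893 CPM in GFP-positive and 217 CPM in GFP-negative nuclei, a ratio of 4.11 (3.38 to 5.03). Ugt2b37, a glucuronosyltransferase with close copies, had a ratio of 10.7 (4.69 to 30.1), and Hao2, a peroxisomal hydroxyacid oxidase, 5.20 (2.64 to 11.4).

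Proximal tubule RNA in the thick ascending limb gate also differed between these libraries. That gate can hold mixed nuclei, so its proximal tubule RNA need not all be free RNA. In it, convoluted tubule genes summed to 4295 CPM in the GFP-positive and 738 CPM in the GFP-negative library. Late S3 nuclei had 5780.1 and 3829.8 CPM. Straight tubule genes summed to 1952 CPM in GFP-positive and 463 CPM in GFP-negative thick ascending limb nuclei, and to 7089 and 7525 CPM in late S3 nuclei. Slc13a1 had a ratio of 51.0 in thick ascending limb nuclei, and Ugt2b37 one of 19.9. The part of free RNA or of mixed nuclei in the late S3 differences was not tested.

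Genes lower in GFP-positive nuclei included markers of other cells. Endothelial genes summed to 65.4 CPM in GFP-positive and 217 CPM in GFP-negative late S3 nuclei, and to 62.5 and 164 CPM in thick ascending limb nuclei. Collecting duct genes summed to 85.6 CPM in GFP-positive and 281 CPM in GFP-negative late S3 nuclei, and to 141 and 381 CPM in thick ascending limb nuclei. Their part in the result was not tested. Rhcg, an ammonia carrier of the collecting duct, had 1 UMI in GFP-positive late S3 nuclei and 23 UMIs in 14 GFP-negative nuclei, and Itgae, an integrin of lymphocytes, had 1 and 30. Of the 30 Itgae UMIs 15 came from 1 nucleus, and Ptprc gave 1 UMI in the GFP-negative late S3 nuclei. Pparg had 1 UMI in GFP-positive nuclei and 21 UMIs in 5 GFP-negative nuclei, 19 of them in nuclei that met the rule by Lpl alone. Among genes higher in GFP-positive nuclei, 102 of 263 Spp1 UMIs came from 1 nucleus.

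**Figure D5:**
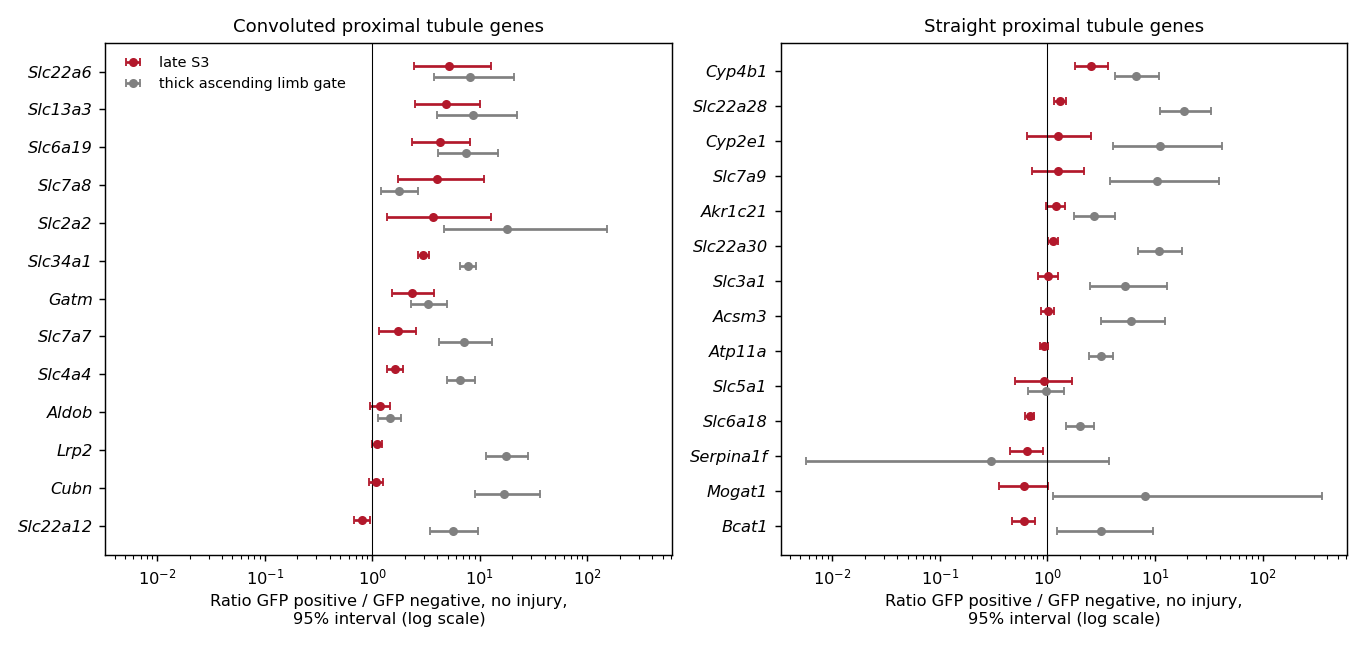
Ratio of GFP-positive to GFP-negative nuclei with no injury (log scale, exact 95% intervals) for listed genes of the convoluted (left) and straight (right) tubule lists, in late S3 nuclei (red) and in thick ascending limb nuclei (grey). In late S3 nuclei the convoluted genes have a median log2 ratio of 1.04 and the straight genes one of 0.01.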

How the data were processed

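UMI counts per gene and nucleus for 27998 genes were deposited by the authors as 1 matrix per library. The submitters' processing notes name Cell Ranger 2.1, STAR 2.5.1b, bcl2fastq 2.17 and, as build, mm10. Per the series' design text the reference was a pre-mRNA one, so intronic reads count. The authors' cell type calls were not analysed here. Of the deposited barcodes, 16359 had at least 200 genes. No doublet caller was run. Nuclei with at least 3 Slc12a1 and Umod UMIs were left out as an alternative, and so were nuclei with Lpl alone. Both alternatives, and thinning in nuclei chosen without a marker, were chosen after seeing the data.

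UMIs were summed over the nuclei of a gate and expressed as CPM. Levels carry exact Poisson intervals, ratios exact conditional intervals and shares Clopper-Pearson intervals, all at 95%. Droplet UMIs share library steps, so intervals and limits at 3 counts cover counting error only. Within libraries, edgeR 4.0.16 (R 4.3.3) was run with TMM, filterByExpr at a minimum count of 10, library as block and Benjamini-Hochberg adjustment over all genes tested, with DESeq2 1.42.0 as an alternative. On data simulated from these sums, edgeR recovered 100 of 100 genes changed 4-fold for both contrasts. It recovered 42 of 100 (late against early) and 46 of 100 (late against Slco1a1/Slc7a13) changed 2-fold, with 6 and 7 false calls. The simulation gave all genes the same fixed dispersion and each gene the same mean in every library. Changed genes were drawn where the smallest sum was due more than 10 counts. These counts therefore check the code and do not give the error rates in the real data.

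Named genes were the 10 of largest change in each direction with adjusted p below 0.05, at least 100 UMIs and the same direction in every library. Between libraries they were the 8 highest and 8 lowest by the bound of the ratio interval nearest to 1, among genes with at least 20 UMIs. Any list gene could also be named. Some items that these rules name are not reported here. The rule, the members and the lists were chosen with earlier results of these data known. Car3 was named after its values were seen. The sums and intervals were computed with scipy 1.17.1 and numpy 2.4.6 under Python 3.11.15, and drawn with matplotlib 3.10.9.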

Additional observations from a re-analysis of the deposited data

How the results depend on the processing

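Shares are given in the order no injury, 64 h, 96 h, 28 d (GFP positive) and no injury GFP negative. Thinning to 300 UMIs gave 2.11, 0, 0, 2.18 and 2.52%; thinning to 500 UMIs gave 3.93, 0, 0.122, 2.98 and 4.81%. At least 2 marker UMIs gave 7.35, 0.365, 0.344, 5.12 and 9.05%, and at least 5 gave 5.56, 0, 0.0625, 3.91 and 5.63%. At least 400 genes gave 8.36% in GFP-negative nuclei. Without Cyp7b1 shares were 4.10, 0.0332, 0, 1.06 and 3.77%, and without Lpl 4.87% (no injury GFP positive) and 5.54% (GFP negative). With the 3 proximal tubule gates as denominator they were 11.3, 0.399, 3.53, 11.0 and 56.4%. The 64 h and 96 h shares stayed below the other 3 under each of these. Between 28 d and no injury the number of genes higher and lower was 89 and 101 with at least 50 UMIs, 2730 and 3738 with at least 1 UMI, 1149 and 1037 at 1.5-fold, and 21 and 25 after thinning to 300 UMIs. Between GFP-positive and GFP-negative nuclei it was 57 and 90, 1986 and 3418, 769 and 1098, and 13 and 19. Against early nuclei, DESeq2 called 383 higher and 371 lower, the fit with no block 496 lower, and thinning to 300 UMIs 74 and 67. Leaving out 1 library gave 485 to 828 higher and 486 to 818 lower. Without nuclei with at least 3 Slc12a1 and Umod UMIs, edgeR called 760 higher and 743 lower. Against Slco1a1/Slc7a13 nuclei, DESeq2 called 58 and 69, the fit with no block 24 and 19, and at least 5 marker UMIs 205 lower. Thinning to 300 UMIs called 0 and 0 of 157 genes in 2 libraries, with 25 at an unadjusted p below 0.05 in edgeR; DESeq2 was not run on the thinned sums. Leaving out 1 library gave 46 to 462 higher and 69 to 482 lower. Without nuclei with at least 3 Slc12a1 and Umod UMIs, edgeR called 201 higher and 271 lower. The cause of these shifts was not tested, apart from the fewer genes or samples that a setting leaves. Of the 20 genes of the naming rule against Slco1a1/Slc7a13 nuclei, 4 lost the call under DESeq2, including A330033J07Rik, Serpina1f and Tmem108 (adjusted p = 0.331, 0.351 and 0.152). With no library block 9 did, and without the no injury GFP-positive library 3 did while 3 were not tested. With at least 5 marker UMIs the log2 difference of Spp1 between GFP-positive and GFP-negative nuclei was 0.50. Thinned to 300 UMIs, the 28 d share was not below that with no injury, and without Cyp7b1 the GFP-positive share lay above the GFP-negative one. Between libraries, no paired analysis was possible because every group has 1 library; the contrasts between gates were blocked by library. At 64 h and 96 h 4 and 6 late S3 nuclei allow no gene comparison, and depth limits the 96 h library as well (median 507 UMIs).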
